A study of Mus musculus with 6 samples.

Results

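Voltage-gated calcium channels are described here through 10 of their subunit genes, followed by poly(A)-site sequencing (PA-seq, which counts tags at the 3′ ends of polyadenylated RNA) across the development of the mouse retina. The members are the pore-forming α1 subunit genes Cacna1a, Cacna1b, Cacna1c, Cacna1d and Cacna1e, the α2δ subunit genes Cacna2d1, Cacna2d2 and Cacna2d3, and the β subunit genes Cacnb2 and Cacnb4. They were chosen by name, with earlier results of these data known. A site was given to a gene if its 3′ edge fell inside the same-strand gene or up to 1000 bases past its end. This gave 10 genes of 14481 with a site, and 21 sites of 32688. Whole retinas of C57BL/6J mice were sampled at embryonic days 13.5, 15.5 and 18.5 (E13.5, E15.5, E18.5) and at postnatal days 0, 6 and 21 (P0, P6, P21), with no treatment or engineered allele named in the labels. Each stage has 1 sample, so no level has a replicate. Tests therefore used stage order (E13.5 first, P21 last) as a linear trend over 6 libraries, and p-values measure only the scatter of single libraries around it. The series concerns alternative polyadenylation, so the level of each gene and the choice among its 3′ ends were both followed.

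A voltage-gated calcium channel opens on depolarisation and lets calcium into the cell, where it triggers transmitter release and changes gene expression. The α1 subunit forms the pore and names the current, the cytoplasmic β subunit carries α1 to the membrane and sets its gating, and the extracellular α2δ subunit raises the number of channels at the surface. In the retina, photoreceptors and bipolar cells release glutamate at ribbon synapses through slowly inactivating L-type channels, whereas ganglion and amacrine cells carry several current types.

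The libraries held 3286158 to 4656153 tags, and 3 tags corresponded to 0.655 to 0.944 CPM (tags scaled to library size with the trimmed mean of M values, TMM). A tag marks 1 transcript end, so CPM values were compared between genes without division by length. The table has 2 count columns for each stage, whose difference is not stated. They were added, and both are given for some of the genes whose columns differed. Marker genes followed the labels: 4 progenitor markers (Sfrp2, Fgf15, Ccnd1 and Mki67) summed to 2285 CPM at E13.5 and 343 CPM at P21, and 3 rod markers (Nrl, Pde6b and Sag) to 209.9 and 1838 CPM. The columns behind these sums differed, with 593 and 87.8 CPM for the progenitor markers at P21 and 373 and 16.6 CPM for the rod markers at E13.5. The lens markers Cryaa, Cryba1, Crygs, Mip and Bfsp1 summed to 1446 CPM at E15.5 and 1522 CPM at P0, against 86.5 to 580 CPM in the other 4 libraries. In whole tissue, fewer cells of a type and less RNA per cell cannot be told apart.

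Across the 10 members, 5 rose with stage order, 0 fell and 5 did not pass (edgeR quasi-likelihood test, Benjamini-Hochberg adjusted p of 0.05 or less). Of all 14467 genes tested, 17.0% rose and 13.2% fell. The risers were Cacna1e among the pore subunits, Cacna2d2 and Cacna2d3 among the α2δ subunits, and both β members, Cacnb2 and Cacnb4. Cacnb4 may have been available to test only through its 28 tags at P21, as described below. It is included in the counts and medians given here. The median fitted log2 change from E13.5 to P21 was 1.44 over the 10 members and -0.02 over all genes tested. With counts under 3 tags in a library set to 3, the median observed log2 ratio of P21 to E13.5 was 1.45 over the members and -0.04 over all genes. At an unadjusted p under 0.05 in edgeR, 7 members had a positive change (23.2% of all genes) and 0 a negative one (20.8%). DESeq2 called 7 members rising (19.1% of all genes) and 0 falling (15.4%). Without P21, 0 members passed, and the genes called rising went from 2463 to 874. Without E13.5, 3 members passed, and 1248 genes were called rising. With days after conception in place of stage order, 3 members passed, and 2354 genes were called rising.

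**Figure D1:**
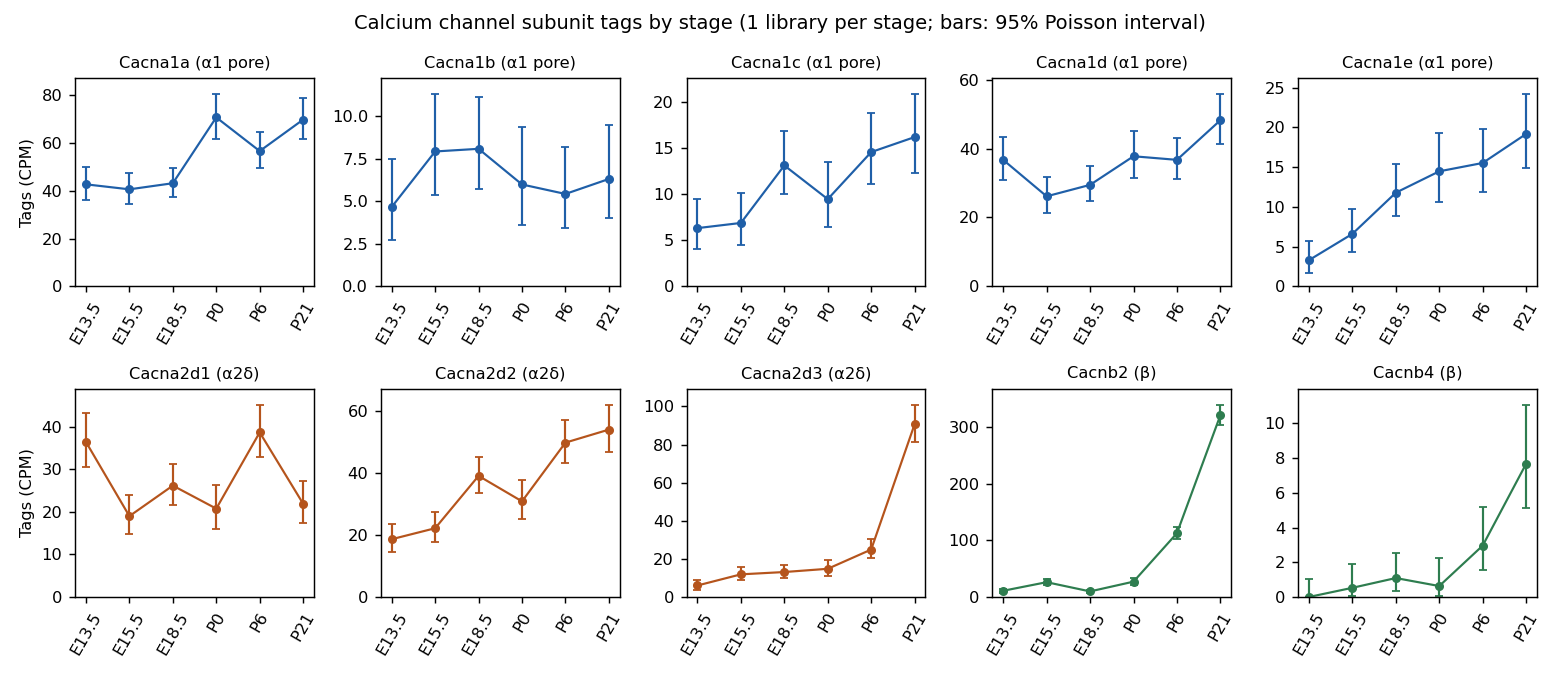
Level of each of the 10 subunit genes at the 6 stages, in CPM on an axis from 0, 1 library per stage, with 95% Poisson intervals that cover counting error only. Cacnb2 reached 321 CPM and Cacna2d3 90.7 CPM at P21, while Cacna1b stayed between 4.66 and 8.07 CPM.

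The α1 subunits form the pore. Cacna1a, Cacna1b and Cacna1e encode the P/Q-type, N-type and R-type pores of presynaptic and dendritic currents, and Cacna1c and Cacna1d encode L-type pores. The sites of the 5 genes lay in final exons past the stop codon. Their sequences, read from GENCODE M21 transcripts (mm10) on the RNA strand 5′ to 3′, are shown because they mark the end that each count stands for. Capitals mark the hexamer AATAAA, or ATTAAA where it is absent, the signals that the cleavage machinery reads. Each run ends at the site's edge.
Cacna1a, chr8:84640189-84640246, +: aaaatAATAAAaacgaaaaaacttgaatcc
Cacna1b proximal, chr2:24606374-24606387, -: atagactAATAAAgccctttcttagaggga
Cacna1b distal, chr2:24603985-24603999, -: gtttgctgcctgaataatatttacaaacta
Cacna1c proximal, chr6:118592312-118592328, -: aaagtaaatcgttttgtatttggagtgtga
Cacna1d proximal, chr14:30041093-30041109, -: gttactataaacctatctttccgtaagata
Cacna1d distal, chr14:30039945-30039964, -: tcatttaatATTAAAtttctctttgtaaga
Cacna1e, chr1:154390731-154390762, -: aaaagtaaAATAAAaccttgttgtaaagaa

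Cacna1e was the pore member that rose. From E13.5 to P21 it stood at 3.29 (12 tags), 6.60, 11.8, 14.5, 15.5 and 19.2 CPM (70 tags). With the columns added, each stage was above the one before, although the 95% Poisson intervals of neighbouring stages overlapped throughout. Its fitted log2 change was 2.27 ± 0.55 (SE, 6 libraries), with an adjusted p of 0.0207 in edgeR. The call was lost without E13.5, when the change was 1.35 (adjusted p = 0.108), and with days after conception (1.68, 0.120). It was also lost without E15.5 (2.32, 0.0622) and without P21 (2.19, 0.0602), with changes of about the same size. Cacna1e was 5.83-fold higher at P21 than at E13.5. Its count columns differed most at P21, with 15.2 and 23.0 CPM (28 and 42 tags), against 7.36 and 5.92 CPM at E15.5. In the first column Cacna1e was lower at P21 than at P6 (16.8 CPM). All 270 of its tags fell on a single site, 7662 bases past the stop codon, where the AATAAA ends 16 bases before the edge.

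Cacna1a, the P/Q-type pore, was the most abundant pore member at every stage. Its levels from E13.5 to P21 were 42.7, 40.6, 43.2, 70.8, 56.7 and 69.9 CPM. The 3 embryonic stages lay below the 3 postnatal ones, although the interval at P6 (49.6 to 64.5 CPM) just overlapped those at E13.5 (36.3 to 49.997 CPM) and E18.5 (37.4 to 49.7 CPM). Stage order gave a fitted log2 change of 0.82 ± 0.29 with an adjusted p of 0.0660 in edgeR, and 0.0415 in DESeq2. Its 1218 tags fell on 1 site, 538 bases past the stop codon.

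Cacna1d, an L-type pore known for opening at more negative voltages, stood at 36.7, 26.1, 29.5, 37.8, 36.7 and 48.2 CPM from E13.5 to P21. The lowest level was at E15.5 and the highest at P21, and E13.5, P0 and P6 had overlapping intervals. The fitted log2 change of 0.52 ± 0.32 did not pass (edgeR, adjusted p = 0.246). It was 0.84 without E13.5 and 0.23 without P21. The distal of its sites, 2128 bases past the stop codon, held 93.0% of its tags, and the proximal one lay 980 bases past it.

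Cacna1c, the L-type pore also used in heart and smooth muscle, stood at 6.30, 6.86, 13.1, 9.44, 14.5 and 16.2 CPM. The earliest 2 stages were lowest and P21 was highest, 2.57-fold above E13.5. The columns of Cacna1c differed at E13.5, with 8.61 and 3.44 CPM (17 and 6 tags), and stood at 18.0 and 14.3 CPM at P21. The fitted log2 change was 1.34 ± 0.49 (edgeR, adjusted p = 0.0729, and 0.0468 in DESeq2). Of 5 smooth muscle and pericyte markers, Acta2 and Rgs5 had a site, and their sum went from 10.96 CPM at E13.5 to 118 CPM at P21. No site was assigned to Myh11, Tagln or Cspg4. The part of these cells in the level of Cacna1c was not tested.

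Cacna1b, the N-type pore, stood at 4.66, 7.92, 8.07, 5.98, 5.42 and 6.30 CPM, with 17 to 37 tags a library. The Poisson intervals of all 6 stages overlapped, and the fitted log2 change was -0.05 ± 0.57 (edgeR, adjusted p = 0.955). Its tags were spread evenly, 74 on each of 2 sites that lay 2389 bases apart.

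The order of the pore members by CPM changed little. At E13.5 it ran Cacna1a, Cacna1d, Cacna1c, Cacna1b, Cacna1e, and at P21 Cacna1a, Cacna1d, Cacna1e, Cacna1c, Cacna1b. Cacna1e thus went from the last place to the third, although its interval at P21 (15.0 to 24.2 CPM) overlapped that of Cacna1c (12.3 to 20.9 CPM).

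The α2δ subunits are cleaved, glycosylated proteins on the outer face of the membrane, and Cacna2d1 is also the target of gabapentin. The ends of the 3 members differed in kind, which is why both sites of each pair are shown. The proximal site of Cacna2d1 closes a short annotated coding transcript far upstream of the full-length end. The proximal site of Cacna2d3 closes transcripts annotated as subject to decay (nonsense-mediated or non-stop). The sites of Cacna2d2 share a final exon and lie 90 bases apart. The run of the Cacna2d3 proximal site ends 2 bases before its edge.
Cacna2d1 proximal, chr5:16089005-16089021, +: gcacacaagaaAATAAAagattgtaactag
Cacna2d1 distal, chr5:16374487-16374505, +: ttcagAATAAAagtttatcattgaaagtca
Cacna2d2 proximal, chr9:107529220-107529253, +: cagcgacaaaaaaaagtcgagaaactttgt
Cacna2d2 distal, chr9:107529310-107529343, +: gttATTAAAtaatgttcatattttcacttc
Cacna2d3 proximal, chr14:29064152-29064167, -: gttctatctggAATAAAtatctttggccga
Cacna2d3 distal, chr14:28904944-28904962, -: actttttaAATAAAgtatattaaaatcata

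Cacna2d3 rose 15.0-fold from E13.5 to P21. It stood at 6.03 CPM (22 tags), 11.9, 13.1, 14.8, 24.9 and 90.7 CPM (331 tags) from E13.5 to P21. P21 was far above all other stages, and E15.5, E18.5 and P0 could not be told apart by their intervals. The fitted log2 change was 3.47 ± 0.55 (edgeR, adjusted p = 0.00572). Without P21 it was 1.76, with an adjusted p of 0.0586. The columns parted at E15.5 (16.3 and 7.53 CPM) and P0 (21.5 and 8.42 CPM) and met at P21 (91.4 and 89.4 CPM).

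Cacna2d2 stood at 18.6, 22.2, 39.1, 30.8, 49.8 and 54.0 CPM. Levels at P6 and P21 were above those at E13.5 and E15.5 with intervals that did not overlap. The fitted log2 change was 1.53 ± 0.34 (edgeR, adjusted p = 0.0157), a 2.90-fold rise between the end stages. The call was lost without E13.5 (1.14, adjusted p = 0.0834), without P21 (1.37, 0.0626) and with days after conception (1.37, 0.0523).

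Cacna2d1 followed no order, at 36.4, 19.002, 26.2, 20.8, 38.7 and 21.9 CPM. E13.5 and P6 were high, and E15.5, P0 and P21 were low, with upper bounds of at most 27.3 CPM against lower bounds of at least 30.5 CPM. The fitted log2 change of Cacna2d1 was -0.13 ± 0.49 (edgeR, adjusted p = 0.861), and both columns gave the same alternation. These levels, and the shares below, count every site of the gene, short and intronic ends included. The full-length end alone had 75, 25, 69, 35, 81 and 59 tags in stage order, not scaled to library size and given without intervals. In these tags P21 was above E15.5 and P0, and P0 was the smallest library. Among the 3 α2δ members, Cacna2d1 held 59.6% of the tags at E13.5 (95% Wilson interval 53.1% to 65.9%) and 13.2% at P21 (10.7% to 16.1%). Cacna2d3 held 9.87% (6.61% to 14.5%) at E13.5 and 54.4% (50.5% to 58.4%) at P21.

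The β subunits sit inside the cell and bind the α1 linker between the first and second repeats. Cacnb2 is the form known from photoreceptor synapses, and loss of Cacnb4 is known for ataxia and seizures in mice. The proximal of the strongest Cacnb2 sites and the only Cacnb4 site are shown, since they carry the signals for the 2 members with the largest fitted changes. The sequence of the other strong Cacnb2 site, chr2:14988789-14988810 on the + strand, 902 bases past the last annotated end, was not used here.
Cacnb2 proximal, chr2:14987404-14987426, +: tcgtagggaAATAAAtttttataactcgtc
Cacnb4, chr2:52428328-52428350, -: tttatatAATAAAtgaaaaaaaaaacacag

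Cacnb2 showed the highest level of any member. Its levels from E13.5 to P21 were 10.96 (40 tags), 26.1, 9.82, 27.1, 113 and 321 CPM (1172 tags). The intervals of E13.5 and E18.5 overlapped, as did those of E15.5 and P0, and P6 and P21 stood above all 4. The fitted log2 change was 4.71 ± 0.82 (edgeR, adjusted p = 0.00782), and the observed ratio of P21 to E13.5 was 29.3. Without P21 the fitted change was 2.92 with an adjusted p of 0.0666.

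The up-and-down course of Cacnb2 before P6 was a feature of 1 column. In the first column it stood at 15.7, 44.7, 12.997, 48.6, 109 and 296 CPM, and in the second at 5.17, 7.53, 6.06, 5.83, 118 and 345 CPM. The second column was thus flat up to P0, with 9 to 14 tags a library, while the first was 8.34-fold above it at P0 and 5.93-fold at E15.5. A first column at least 2-fold above the second, with 20 tags or more, was found for 2 members, Cacnb2 and Cacna2d3, at E15.5 (2.85% of all genes) and P0 (1.81%). It was found for Cacnb2 alone at E13.5 (1.56%) and E18.5 (0.899%), and for 0 members at P6 (0.767%) and P21 (2.11%). The 3 rod markers summed to 688 and 28.0 CPM in the first and second columns at E15.5, and to 752 and 328 CPM at P0. The lens markers above summed to 1408 and 1504 CPM in the first and second columns at E15.5, and to 1855 and 1230 CPM at P0. The part of rods and of lens in the early levels of Cacnb2 was not tested. With the second columns alone the fitted change was 7.01, and with the first columns alone 3.89, and both passed in edgeR (adjusted p = 0.0060 and 0.00917).

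**Figure D2:**
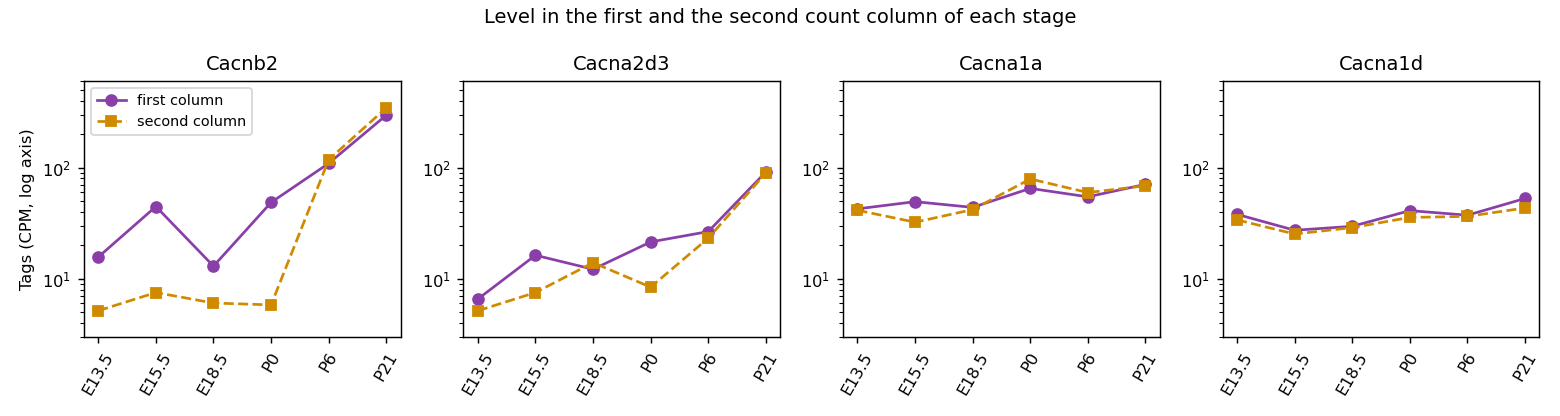
Level of 4 subunit genes in the first (circles) and second (squares) count column of each stage, in CPM on a log axis. The columns of Cacnb2 parted before P6 (48.6 and 5.83 CPM at P0) and met from P6 on, and those of Cacna1a and Cacna1d stayed within 2-fold at each stage.

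Cacnb4 had the fewest tags of any member over the 6 libraries, 49 in all. It had 0, 2, 5, 2, 12 and 28 tags from E13.5 to P21, the last being 7.67 CPM. Its 4 earliest levels were all at or below 1.09 CPM and their intervals overlapped. At the floor of 3 tags per library for E13.5, P21 was at least 9.33-fold higher. The test passed (edgeR, adjusted p = 0.00940), and it did not without P21 (0.0958). The lowest total of any deposited site was 41 tags, and the tags of Cacnb4 before P21 fall short of that. The gene may thus have been available to test only through its 28 tags at P21, so its call is not independent of that stage. Both columns held tags at P6 (8 and 4) and at P21 (13 and 15).

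Between neighbouring stages, levels were compared without a test, by a change of 2-fold or more where the larger count was 20 tags or above. From E13.5 to E15.5, 2 members went up by this measure, Cacna1e and Cacnb2 (5.01% of all genes did), and 0 went down (2.65%). From E15.5 to E18.5 0 members went up (4.81%) and Cacnb2 alone went down (2.22%). From E18.5 to P0 Cacnb2 alone went up (1.91%) and 0 members went down (4.96%). These steps of Cacnb2 up to P0 were those of the first column. In the second it stood at 5.17, 7.53, 6.06 and 5.83 CPM from E13.5 to P0, with no 2-fold step. From P0 to P6 Cacnb2 went up 4.16-fold, where 9.0% of all genes went up by this measure, and 0 members went down (6.71%). At this step Cacnb2 went from 48.6 to 109 CPM in the first column and from 5.83 to 118 CPM in the second. From P6 to P21, 3 members went up, against 9.21% of all genes: Cacna2d3 by 3.64-fold, Cacnb2 by 2.85-fold and Cacnb4 by 2.59-fold. None of the 10 went down at that step (4.26%). Between the end stages 6 members went up (21.7% of all genes) and 0 went down (16.6%). The counts of members going up to P21 include Cacnb4, which may have been available only through its tags at that stage.

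Set among all genes of their class, the members took different paths. The 5 pore members held 53.8% of the tags of 10 α1 genes at E13.5 and 18.7% at P21, while their summed level went from 93.7 to 160 CPM. The α1 total went from 174 to 856 CPM, of which Cacna1f, the L-type pore of photoreceptor synapses, held 5.66% at E13.5 and 43.2% at P21. The 3 α2δ members held 71.5% of their class at E13.5 and 22.6% at P21, when Cacna2d4, the α2δ form of photoreceptors, held 77.4%. The β class went the other way. Cacnb3 held 72.8% of β tags at E13.5 and 19.8% at P21, and Cacnb2 went from 6.02% (95% Wilson interval 4.45% to 8.09%) to 71.6% (69.3% to 73.7%). The shares at E13.5 differed between the count columns. The first and second held 31 and 9 tags of Cacnb2, against 246 and 238 of Cacnb3. They held 78 and 11 tags of Cacna2d4, and 32 and 4 of Cacna1f. The Wilson intervals do not cover this difference.

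**Figure D3:**
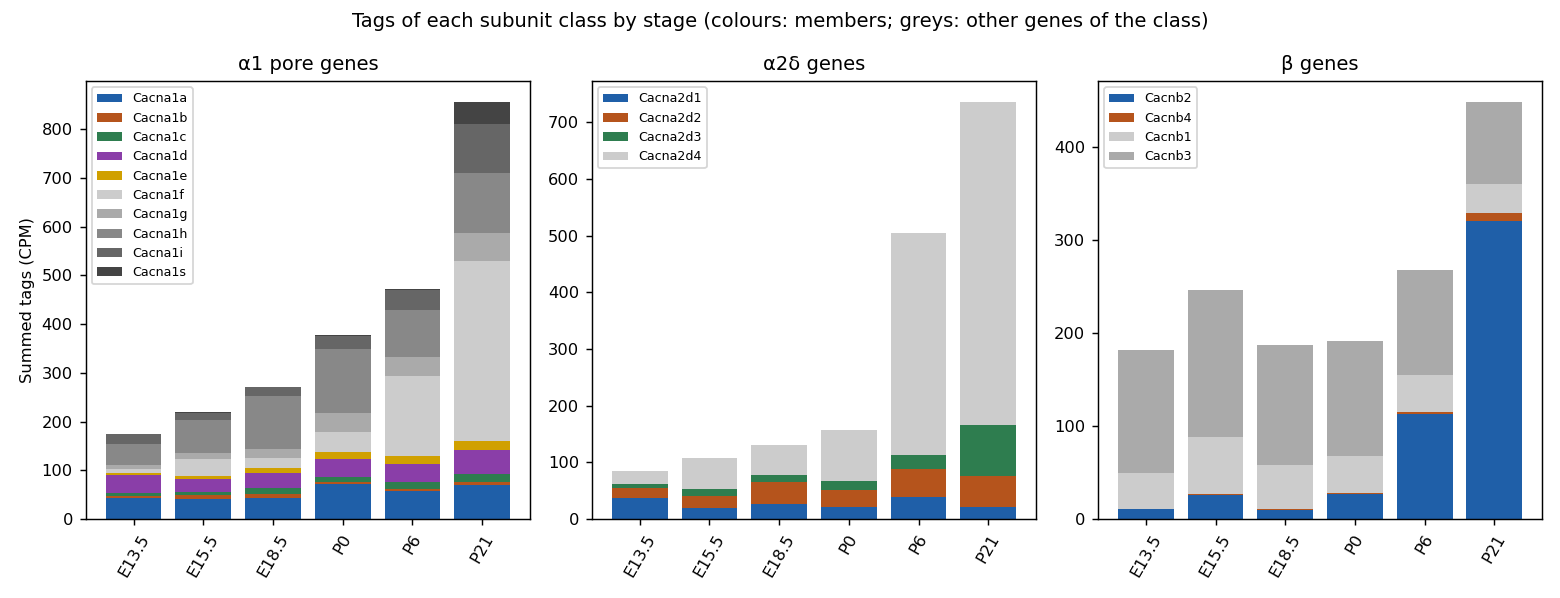
Summed level of the α1, α2δ and β genes at each stage, in CPM, stacked by gene, with members in colour and the other genes of the class in grey. Cacnb2 made up 71.6% of β tags at P21, and Cacna1f and Cacna2d4 were the largest parts of the other classes at that stage.

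Of 16 other channel genes, 14 were tested, with a median fitted log2 change of 1.45. In edgeR 7 rose (17.0% of all genes did), 1 fell (13.2%) and 6 did not pass. Cacna1s, best known as the skeletal muscle pore, had 0 tags at E13.5 and E18.5 and stood at 45.2 CPM at P21, at least 55.0-fold above the floor of 3 tags at E13.5. Of 5 skeletal muscle markers, Acta1, Mylpf and Ttn had a site and summed to 18.4 to 39.5 CPM over the stages. The part of muscle in the level of Cacna1s was not tested. Cacna1s had 0, 4, 0, 2, 13 and 165 tags in stage order, and those before P21 fall short of the lowest site total of 41. It may have been available to test only through P21, so its call, like that of Cacnb4, is not independent of that stage. Cacna1f had a fitted log2 change of 4.81 ± 0.68 and Cacna2d4 of 4.62 ± 0.50. Their columns parted in the way of Cacnb2, with 66.3 and 12.95 CPM for Cacna1f and 129 and 55.7 CPM for Cacna2d4 at P0. Cacng4, a transmembrane regulator of AMPA receptors, fell from 176 to 78.9 CPM (-1.08 ± 0.19, adjusted p = 0.00719 in edgeR). Cacng8 (-1.05 ± 0.44) and Cacnb3 (-0.64 ± 0.21) did not pass (adjusted p = 0.109 and 0.0549).

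Of 22 genes for partners and regulators of these channels, 21 were tested, with a median fitted log2 change of 2.08. In edgeR 15 rose (17.0% of all genes did), 1 fell (13.2%) and 5 did not pass. The largest rises were those of Cabp4, a calcium-binding protein that tunes photoreceptor channels, which stood at 0.822 CPM (3 tags) at E13.5 and 79.7 CPM at P21 (5.38 ± 1.22), of Cabp2, a relative of it, from 1.92 to 46.6 CPM (4.49 ± 0.88), and of Camk2a, a calcium-dependent kinase, from 1.37 to 17.0 CPM (3.84 ± 0.85). Camk2a had 5, 5, 5, 8, 14 and 62 tags in stage order, and those before P21 fall short of the lowest site total of 41. It may have been available to test only through P21, so its call is not independent of that stage. Erc1, an active zone scaffold, fell from 55.9 to 24.1 CPM (-1.03 ± 0.29, adjusted p = 0.0352 in edgeR). Rem2, a small GTPase that inhibits these channels, did not pass (-1.27 ± 0.49, adjusted p = 0.0850). The columns of Cabp4 held 23 and 0 tags at E15.5 and 11 and 1 tags at P0, the same direction as those of Cacnb2 and the rod markers, and the part of rods in these levels was not tested.

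**Figure D4:**
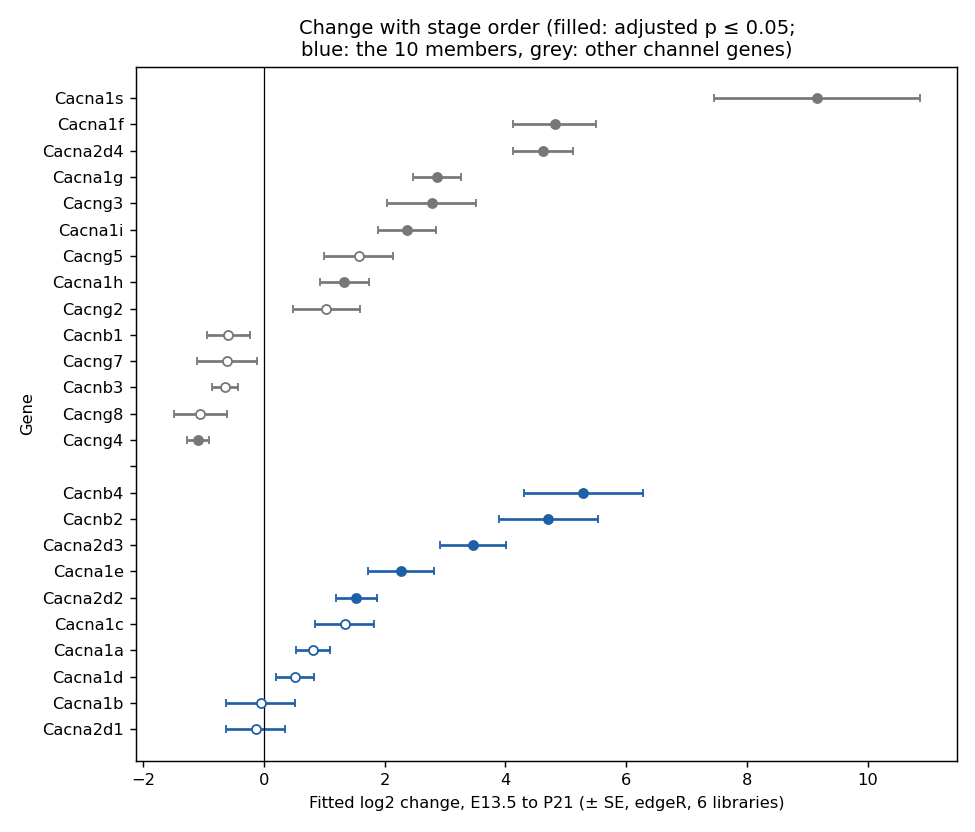
Fitted log2 change from E13.5 to P21 with its SE for the 10 members (blue) and 14 other channel genes (grey), from the edgeR fit over 6 libraries, filled where the adjusted p is 0.05 or less. Of the members, 5 are filled, all to the right of 0, and the fitted changes of Cacna1s and Cacnb4 depend on the prior count, since both had 0 tags at E13.5.

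Cacnb2, the riser with the highest mean level, was closest in its course to Pygm, muscle glycogen phosphorylase (Pearson r = 0.998), to Vstm2a, an immunoglobulin-domain protein (0.997), and to Tmem214, a transmembrane protein (0.997). The measure was log2 CPM over 6 libraries, among 9788 genes with a mean of 20 CPM or more, and the points share their libraries. Tmem214 followed the same course over a far smaller range, 1.47-fold from E13.5 to P21. Pygm, for example, also stood higher at E15.5 and P0 (16.1 and 16.4 CPM) than at E13.5 and E18.5 (7.95 and 6.11 CPM). That likeness follows from the way Pygm was picked. The levels were summed over the columns, which were not compared for these genes.

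Site choice was tested for the 7 members with 2 sites of sufficient depth, and 0 passed (edgeR diffSpliceDGE), where 1.52% of 6063 pairs shifted to the distal site and 0.561% to the proximal one. At an unadjusted p under 0.05 there was 1 member, Cacna2d3, where 15.4% of all pairs were under it. The fitted change in the odds of the distal site was above 0 in 6 of the 7 pairs (0.0030 for Cacna1b), with a median log2 change of 1.23, against a median of 0.25 and 3783 positive values over all 6063 pairs. Depth limited these shares: Cacna1b had 17 to 37 tags at the pair in a library and Cacna1c 23 to 60.

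The distal share of Cacna2d3, the percentage of pair tags on the full-length end, was 81.8%, 75.6% and 75.0% at the 3 embryonic stages in order, then 91.5% (P0), 87.1% (P6) and 97.6% (P21). The interval at P21 (95.3% to 98.8%) overlapped that at P0 (80.1% to 96.6%) and lay above those of the other 4 stages. The short end kept 4 to 15 tags in each library while the full-length end went from 18 to 323 tags. The change in log2 odds was 3.45, and the adjusted p was 0.123. Without P21 they were 1.25 and 0.692.

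In Cacna2d1 the distal share was 68.8%, 47.2%, 75.8%, 71.4%, 70.4% and 92.2% from E13.5 to P21, so E15.5 was lowest and P21 highest (adjusted p = 0.545). The fitted log2 odds change was 1.51, 0.46 without P21 and 2.50 without P6. The gene also had sites in introns, at chr5:16103722-16103735 and chr5:16322280-16322301 on the + strand, with 42 and 105 tags. The sequence after these intronic sites was not checked for A-rich stretches. All ends before the full-length one took 43.6% of the tags of Cacna2d1 at E13.5, 65.3% at E15.5 and 26.3% at P21 (95% Wilson interval 17.9% to 36.8%). The end of the short transcript had 34 tags at E13.5, 34 at P6 and 5 at P21, while the full-length end had 75, 81 and 59 tags.

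Cacna2d2 had distal shares of 64.7%, 61.9%, 60.9%, 70.4%, 71.3% and 74.6% (adjusted p = 0.493), and its proximal site, with neither hexamer in 40 bases, lay 1789 bases past the stop codon. Cacna1c had its lowest distal share at E13.5 (52.2%) and its highest at P21 (78.0%, a change of 25.8 percentage points, adjusted p = 0.521), and its fitted log2 odds change was 1.23, or 0.67 without P21. Cacna1d ranged from 85.8% at E13.5 to 95.97% at P6 (adjusted p = 0.486), and Cacna1b from 35.3% to 59.5% (adjusted p = 0.997).

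Cacnb2 used 4 sites in its final exon and past its annotated end. They lay 854, 1350, 1831 and 2734 bases past the stop codon and held 7.21%, 45.9%, 7.95% and 39.0% of its tags. The last of them carried 42.5% of tags at E13.5 and 35.9% at P21 (95% Wilson interval 33.2% to 38.7%), and the site at 1350 bases 35.0% and 47.8%. Tags were more numerous at P21 than at E13.5 at every site, going from 5, 14, 4 and 17 tags at E13.5 to 90, 560, 101 and 421 tags at P21. The distal share of the strongest pair was 54.8%, 58.2%, 48.7%, 52.1%, 48.5% and 42.9% from E13.5 to P21, and its log2 odds change of -0.93 did not pass (adjusted p = 0.841, and -0.55 without P21).

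**Figure D5:**
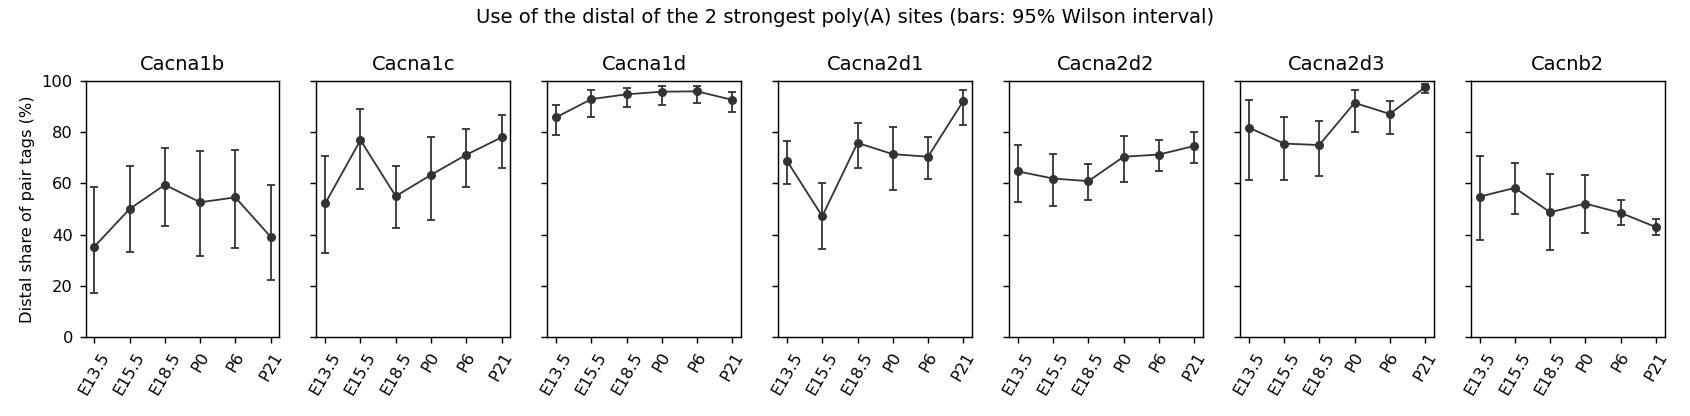
Share of pair tags on the distal of the 2 strongest sites of 7 members, in percent at each stage, with 95% Wilson intervals that cover counting error only. Cacna2d3 reached 97.6% and Cacna2d1 92.2% at P21, and Cacnb2 stayed between 42.9% and 58.2%.

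The member sites resembled other sites in their signals. Of 18 member sites with annotated transcript sequence, 11 held AATAAA in the last 40 bases, 2 held ATTAAA without it and 5 held neither. Over all 23125 sites with 40 bases of transcript sequence, 56.8% held AATAAA and 16.7% held only ATTAAA. The search was on the RNA strand alone. The 5 sites with neither were the distal site of Cacna1b, the proximal sites of Cacna1c, Cacna1d and Cacna2d2, and the first of the 4 Cacnb2 sites. An A-rich stretch in the 20 bases after the site (6 A in a row, or 7 among 10) was found at 0 of 7 member sites with sequence there, and at 7.57% of all such sites. The intronic Cacna2d1 sites and the last Cacnb2 site were not among these 7, so they were not checked. With 7 sites, a share near that of all sites cannot be told from 0.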

How the data were processed

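The authors deposited counts of tags per poly(A) site cluster, with 12 count columns (2 for each stage), per the file headers, and 1 enrichment score per site, which the authors computed in a way not given in the sources used here and which was not used. The submitters' processing notes name BWA 0.7.5a-r405 and mm10; clustering, filters and handling of duplicate reads are not given in the sources used here. Site edges were read as 1-based and may be off by 1 base on the minus strand. The protocol keeps strand. Columns of a stage were added and never used as replicates.

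Sites were placed on GENCODE M21 genes, and nuclear gene sums reaching 1 CPM in 2 or more libraries were tested with edgeR 4.0.16 in R 4.3.3 (TMM, 1 linear term of stage order, 4 residual degrees of freedom). The SE of a change was taken from its F statistic, as its size over the root of F. The 2 strongest sites of a gene, each with 5% or more of its tags and a mean of 20 tags per library at the pair, were tested with diffSpliceDGE. Both fits were also run on simulated data, with results not given here. The pairs given a change there were deeper than those of Cacna1b and Cacna1c. Intervals and floors cover counting error only, since PCR reads are not independent molecules.

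The text names all members, and up to 3 other channel genes and partners a direction with the largest fitted change. Sequences were chosen for main and paired sites. One of these, and a marker gene, are not reported here. Members and lists were chosen with earlier results of these data known.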

Additional observations from a re-analysis of the deposited data

How the results depend on the processing

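Other settings were DESeq2 1.42.0, its size factors, no count filter, days after conception (birth at day 19), either column alone, and other site sets. Of 150 results for single members and abundance settings, 131 kept direction and call, 10 lost it, 3 gained it and 6 changed direction. The number of rising members, 5, became 3 with days after conception and ranged from 0 to 6 when 1 library was left out. Rising genes numbered 874 to 2662 and falling genes 421 to 2411 when 1 library was left out. For pairs these ranges were 0 to 124 distal and 0 to 43 proximal, against 92 and 34, with 27 and 9 in the first columns alone and 22 proximal without intronic sites. Uncalled fits that changed sign were Cacna1b abundance (0.044 in the first columns, -0.49 to 0.21 when 1 library was left out), Cacna2d1 abundance (-0.55 to 0.46), Cacna1b site odds (-0.48 with days, -0.37 in the first columns, -0.65 to 0.79 when 1 library was left out) and Cacna1d site odds (-0.026 to 2.10). The cause of these moves was not tested. No paired analysis was possible because each stage has 1 sample.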
